A study of Homo sapiens with 12 samples.

Results

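BRPF1 is a scaffold protein that holds a histone acetyltransferase and its small partner proteins together, and its transcript was followed here after knockdown of NUF2 beside the transcripts of the subunits it works with. The 9 genes were taken by symbol for their place in these complexes, with earlier results of these data known, as the scaffolds BRPF1, BRPF3 and BRD1, the acetyltransferases KAT6A (MOZ), KAT6B (MORF) and KAT7 (HBO1), and the small subunits ING4, ING5 and MEAF6. All 9 were found once each among the 58302 genes of the files, of which 36305 were above 0 in at least 1 library. RNA was sequenced from 12 libraries of 2 established human kidney cancer cell lines, 769-P and ACHN, which the labels describe as clear cell renal cell carcinoma cells. In each line, cells received siRNA against NUF2 (siNUF2) or control siRNA (siControl) for 48 h, with 3 libraries per group. NUF2 is a subunit of the Ndc80 complex, which anchors spindle microtubules at the kinetochore. The methods describe transfection of both siRNAs with a lipid reagent, and siNUF2 as a mixture of siRNAs, so the response of a single siRNA cannot be told apart from that of the mixture. The libraries of a group are numbered repeats of 1 line, and whether they come from separate cultures is not given in the sources used here, so p-values measure only the spread between these libraries.

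Acetyltransferases of the MYST family transfer acetyl groups to lysines of histone tails, and each works inside a complex whose scaffold decides where it goes. With a BRPF scaffold, KAT6A, KAT6B or KAT7 joins ING4 or ING5, which read histone H3 trimethylated at lysine 4, and MEAF6, and these complexes acetylate histone H3. With a JADE scaffold, KAT7 acetylates histone H4 and takes part in the licensing of replication origins. MOZ and BRPF1 are known for keeping HOX genes active in the embryo and for blood stem cells, and MOZ is a fusion partner in acute myeloid leukemia.

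The 3 scaffold genes are related in sequence and share a role, and their values set BRPF1 apart from the other two in both lines, so the start of each gene is shown for comparison. The stretches below are the reference sequence directly upstream of the first annotated start, from RefSeq on GRCh38.p14, and belong to chr3:9731485-9731728 on the plus strand (BRPF1), chr6:36196494-36196743 on the plus strand (BRPF3) and chr22:49827874-49828123 on the minus strand (BRD1). Capitals mark 2 short motifs found by script, the GC box GGGCGG, bound by SP and KLF factors, and TTTCGCGC, a form of the E2F site, each read on both strands with overlaps allowed.
BRPF1: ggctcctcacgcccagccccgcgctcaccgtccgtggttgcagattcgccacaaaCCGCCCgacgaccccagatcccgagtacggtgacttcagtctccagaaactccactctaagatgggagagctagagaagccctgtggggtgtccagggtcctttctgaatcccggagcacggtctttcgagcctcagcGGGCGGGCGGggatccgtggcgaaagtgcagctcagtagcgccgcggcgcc
BRPF3: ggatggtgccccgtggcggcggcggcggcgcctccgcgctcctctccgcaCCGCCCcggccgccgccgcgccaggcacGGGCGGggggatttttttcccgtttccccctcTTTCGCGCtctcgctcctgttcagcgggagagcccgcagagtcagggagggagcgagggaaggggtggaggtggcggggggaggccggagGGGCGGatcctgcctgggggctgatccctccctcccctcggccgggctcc
BRD1: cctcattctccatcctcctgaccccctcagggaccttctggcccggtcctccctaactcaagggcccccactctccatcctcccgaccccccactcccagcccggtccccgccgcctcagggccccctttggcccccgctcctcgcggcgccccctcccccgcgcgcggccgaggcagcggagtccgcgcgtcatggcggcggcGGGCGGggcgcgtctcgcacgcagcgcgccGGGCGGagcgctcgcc
BRPF1 had 3 GC boxes in its 244 bases, of which a pair overlapped. BRPF3 had 3 GC boxes and 1 TTTCGCGC in 250 bases, and BRD1 had 2 GC boxes in 250 bases. GGGCGG was present in 45% of the 35116 RefSeq promoters of the same table, and TTTCGCGC in 0.515%. These shares were counted on full promoter entries, which run past the start and are longer than the stretches shown. The letters CCGGAAG (ETS), AAGATGGC (YY1) and CCAAT (NFY), found in 10.3%, 2.89% and 34.6% of promoters, were in none of these 3 stretches. Of further RefSeq promoters not shown, number 2 of BRPF1 held 1 GC box, and numbers 2 and 3 of BRD1 held 0. A match is a stretch of letters and not a measured site.

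Before the members are described, the libraries themselves were compared. Between 29244014 and 38864841 reads per library could be recovered from the low FPKM (fragments scaled to exon length and library depth), and the members had from 425 to 4018 reads per library. NUF2 was at 4.17, 3.86 and 3.01 FPKM in the siNUF2 libraries of 769-P cells against 19.4, 17.8 and 17.8 under siControl, and at 2.16, 5.14 and 4.25 against 11.6, 15.0 and 14.8 in ACHN cells, with no overlap in either line. In ACHN cells the repeats differed, most between repeats 1 and 2, with a chi-square per gene of 151 under siNUF2 and 162 under siControl. The other pairs of a group had 75 to 104. Which repeat stood apart depended on the gene. The kidney lineage factor PAX8 was at 57.6 and 57.1 FPKM in the repeat 2 libraries and between 144 and 199.5 in the other 4. KAT6B was at 2.62 and 2.84 in the repeat 2 libraries against 1.30 to 1.72. The keratin KRT8 was lowest in repeat 1, at 93.4 FPKM against 228 and 210 under siNUF2 and 57.4 against 161 and 138 under siControl. No fit left out repeat 1 of both groups. Of 8 renal carcinoma line markers, 7 were at 0.5 FPKM or above in every 769-P library and 6 in every ACHN library. CA9, a defining target of hypoxia signalling in clear cell carcinoma, was at most 0.12 FPKM in all 12 libraries, and CDH6 was at most 0.0047 FPKM in ACHN. The 10 leukocyte, endothelial and fibroblast markers summed to between 0.440 and 0.805 FPKM in 769-P and between 1.77 and 7.07 in ACHN, of which COL1A1 gave 1.14 to 3.87, and 3 markers were at 0 in every library of each group. By the same fits, PAX8 fell by 0.44 in 769-P without the block (limma adjusted p = 0.0360, and 0.0422 to 0.111 with 1 library left out). With the replicate number as a block, 6 of the 7 renal markers tested in 769-P were called, CDH6 and PAX8 lower by 0.55 and 0.44 and KRT8, VIM, KRT18 and PAX2 higher by 0.17, 0.21, 0.26 and 0.34. In ACHN the keratins KRT8 and KRT18 rose by 0.62 and 0.60 with the block (0.0122 and 0.0118) and by 0.67 and 0.59 without repeat 2 (0.0168 and 0.0186), and without the block their differences ran from 0.16 to 1.02 and from 0.26 to 0.92 when 1 library was left out. Of the 10 markers of the other cell types, none was high enough to be tested in 769-P and 3 were in ACHN, where none was called. The part of these markers in the results below was not tested.

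BRPF1 (ENSG00000156983), the scaffold named by the study after NUF2 knockdown, was higher in every siNUF2 library than in any siControl library of its line. Since the study named it from these same libraries, its direction here is not independent evidence. The 769-P libraries held 3.19, 3.69 and 3.20 FPKM under siNUF2 and 2.68, 2.79 and 2.40 under siControl, which is 3.36 ± 0.287 against 2.62 ± 0.203 (SD, n = 3). The ACHN libraries held 5.34, 5.46 and 6.45 FPKM under siNUF2 and 3.82, 3.46 and 3.72 under siControl, which is 5.75 ± 0.613 against 3.67 ± 0.188 (SD, n = 3). The groups therefore did not overlap in either line, and on the log2 scale repeat 3 showed the widest gap in both. Groups separated in this way, with siNUF2 higher, were found for 16.0% of the 14155 genes tested in 769-P and for 7.86% of the 15116 tested in ACHN.

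The size of the BRPF1 difference was 0.36 ± 0.10 (SE) on the log2(FPKM + 0.1) scale in 769-P cells, a fold of 1.28 with a 95% interval of 1.08 to 1.52. Its Benjamini-Hochberg adjusted p over all genes in limma was 0.0748 without regard to the replicate numbers. With that number as a block, the adjusted p was 0.0225 and the interval 1.13 to 1.45. In ACHN cells the difference was 0.65 ± 0.11, a fold of 1.57 with an interval of 1.29 to 1.90. Its adjusted p was 0.224 without the block and 0.0171 with it, where the interval was 1.37 to 1.79. BRPF1 therefore rose in both lines in the fits that compare libraries of the same number, and did not pass in the fits of a single line that ignore the numbers. The fit of all 12 libraries, also without the numbers, called it in ACHN (0.64, adjusted p = 0.0221). With both repeat 2 libraries of ACHN left out, the difference was 0.64 ± 0.11 with the block and the adjusted p 0.0344, whereas without the block the adjusted p was 0.595. The exact permutation test of BRPF1 alone gave p = 0.1 in each line, the smallest that 3 libraries against 3 allow in a two-sided test.

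All 9 members were high enough to be tested in either line. None was called in 769-P without the block, where 9.98% of all genes tested were called. An unadjusted p under 0.05 in that limma fit was found for 2 of the 9, beside 3882 of 14155 genes. With the block, 1 of 9 was called in 769-P (BRPF1), beside 27.5% of all genes (13.6% higher and 13.9% lower). In ACHN none of the 9 was called without the block, where 0% of all genes (0 of 15116) were called by limma, 1238 genes had an unadjusted p under 0.05, BRPF1 the one member among them, and limma-voom on the recovered reads also called 0. With the block 1 of 9 was called (BRPF1), beside 12.2% of all genes (7.14% higher and 5.05% lower). With the block, the members' share was thus below the background in 769-P and close to it in ACHN, and the median difference of the 9 was 0.02 in 769-P and -0.04 in ACHN on the log2 scale, beside -0.0090 and 0.0061 for all genes tested.

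Leaving out both repeat 2 libraries of ACHN gave no further call in either fit, with adjusted p values of 0.141 to 0.656 for the other 8 members with the block. The differences of KAT6B and KAT7 were then -0.31 and -0.15 on the log2 scale, and those of BRPF3, BRD1, ING4, ING5 and MEAF6 were -0.13, -0.10, -0.19, 0.17 and 0.06.

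**Figure D1:**
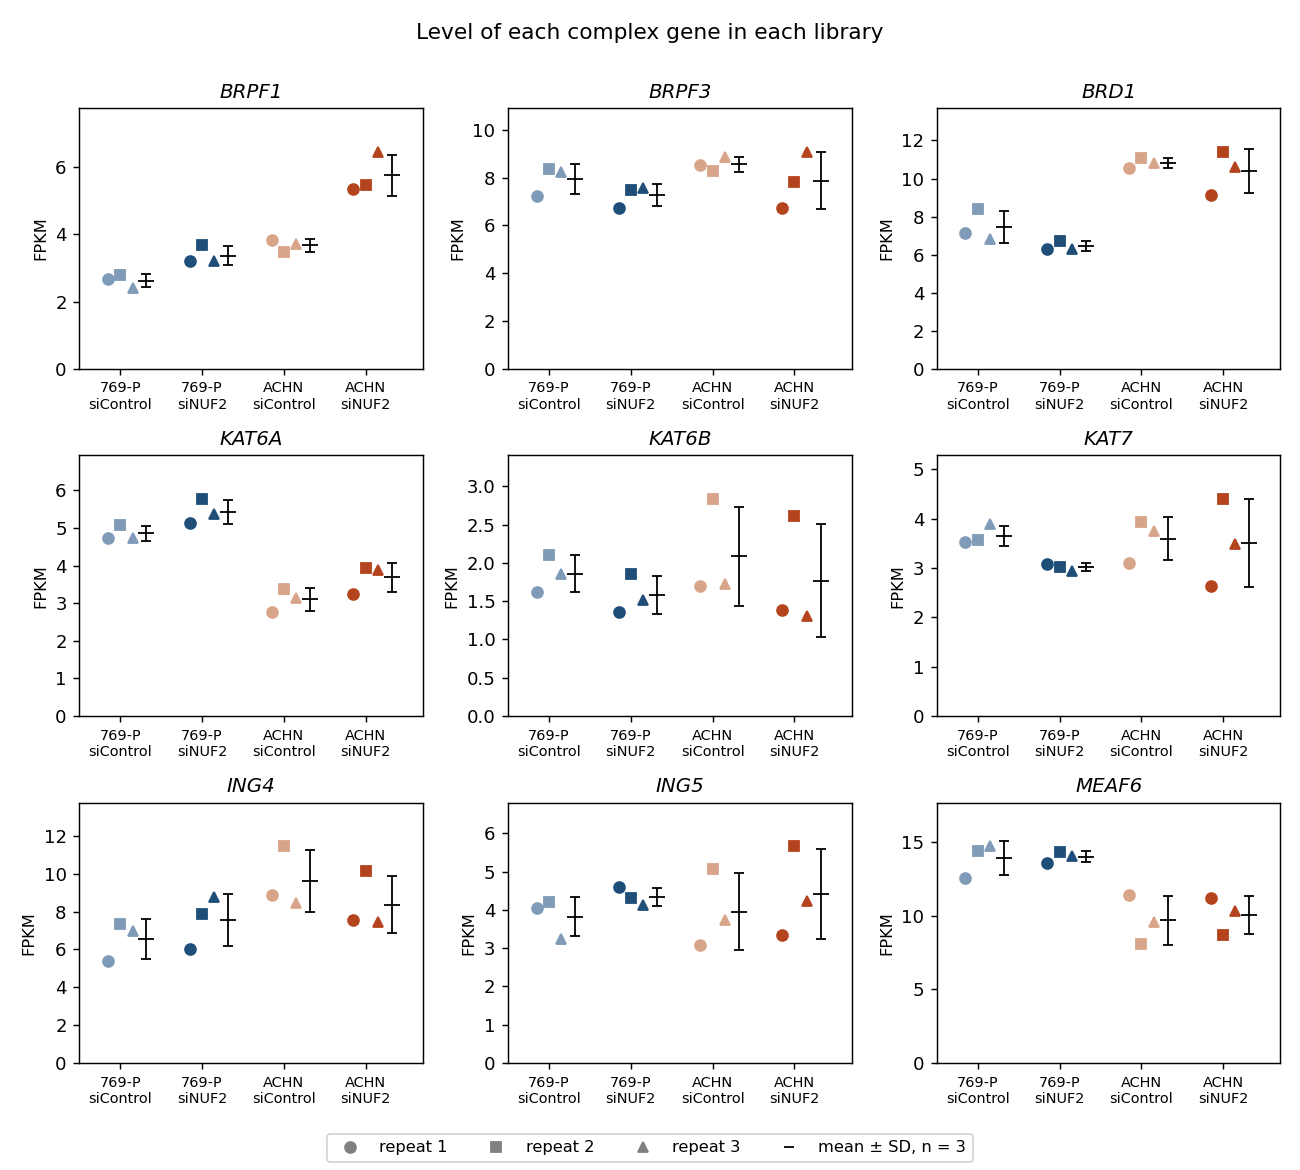
FPKM (vertical axes, from 0) of each of the 9 genes in every library of the 4 groups (horizontal axes), with the repeat as the shape of the point and the mean ± SD (n = 3) as a bar. BRPF1 separates siNUF2 from siControl in both lines, whereas KAT6B, KAT7, ING4 and ING5 in ACHN vary more between repeats than between the siRNAs.

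BRPF3 and BRD1, the paralogs of BRPF1, did not share its direction. BRPF3 (ENSG00000096070) preferentially partners KAT7 and was at 6.72, 7.49 and 7.55 FPKM under siNUF2 against 7.22, 8.36 and 8.24 under siControl in 769-P cells. The ACHN values were 6.72, 7.82 and 9.08 FPKM against 8.52, 8.27 and 8.88. The groups overlapped in both lines, and the differences were -0.12 ± 0.09 (limma adjusted p = 0.437) and -0.11 ± 0.13 (adjusted p = 0.952) on the log2 scale. In fold, these carry 95% intervals of 0.800 to 1.06 and 0.744 to 1.151, so a change as large as that of BRPF1 in ACHN lay outside them.

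BRD1 (ENSG00000100425), also known as BRPF2, likewise works mostly with KAT7. The 769-P libraries held 6.30, 6.73 and 6.30 FPKM under siNUF2 and 7.13, 8.41 and 6.81 under siControl, with every siNUF2 library lower. The difference was -0.19 ± 0.10 on the log2 scale, with an adjusted p of 0.249 in limma without the block and 0.0793 with it. Separation with siNUF2 lower was found for 17.3% of all genes tested in 769-P. In ACHN cells BRD1 was at 9.13, 11.4 and 10.6 FPKM under siNUF2 and at 10.6, 11.1 and 10.8 under siControl. These values overlapped, and the difference was -0.05 ± 0.11 (adjusted p = 0.990).

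Within the scaffold transcripts, the part taken by BRPF1 was larger under siNUF2 in every library. BRPF1 made up 19.7%, 20.6% and 18.8% of the summed FPKM of the 3 scaffolds under siNUF2 in 769-P cells and 15.7%, 14.3% and 13.7% under siControl. In ACHN cells the shares were 25.2%, 22.1% and 24.7% against 16.7%, 15.2% and 15.9%. The differences were 5.12 percentage points in 769-P and 8.07 in ACHN, each with an exact two-sided permutation p of 0.1, the smallest the design allows, and 0.1 after adjustment over these 2 shares. Within same-numbered libraries the share was higher by 3.98 to 6.36 points in 769-P and by 6.94 to 8.77 in ACHN, and the exact sign-flip test over 3 pairs cannot go below 0.25, the value it gave in both lines. The sum of the scaffolds itself was 17.1 ± 0.851 FPKM under siNUF2 against 18.0 ± 1.36 under siControl in 769-P and 24.0 ± 2.55 against 23.0 ± 0.318 in ACHN (SD, n = 3), and its ranges overlapped in both lines.

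Among the acetyltransferases, KAT6A was the member with the pattern nearest to BRPF1, but it did not pass the test. KAT6A (ENSG00000083168), the founding member of the MOZ complex, was at 5.14, 5.78 and 5.37 FPKM under siNUF2 and at 4.74, 5.08 and 4.74 under siControl in 769-P cells. All 3 siNUF2 libraries lay above the siControl libraries. The difference was 0.17 ± 0.08 on the log2 scale, with an adjusted p of 0.222 without the block and 0.0751 with it in limma. In ACHN cells KAT6A was at 3.24, 3.94 and 3.87 FPKM against 2.77, 3.39 and 3.15. The ACHN groups overlapped by 1 library, while within each numbered pair siNUF2 was higher, by 0.22 to 0.31 on the log2 scale. The difference there was 0.26 ± 0.13, with an adjusted p of 0.719 without the block, 0.0591 with it, and 0.141 with the block and without repeat 2.

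KAT6B (ENSG00000156650), the close paralog of KAT6A on chr10:74824927-75032624, had the lowest FPKM of the 9 in both lines. It was at 1.36, 1.86 and 1.52 FPKM under siNUF2 and at 1.62, 2.11 and 1.85 under siControl in 769-P, and at 1.38, 2.62 and 1.30 against 1.70, 2.84 and 1.72 in ACHN. Its groups overlapped in both lines, although siNUF2 was lower within each of the 6 numbered pairs. All 3 pairs of a line went one way for 8 of the 9 members in 769-P and for 6 in ACHN. The share of all genes that did so was not counted, so these counts do not set the members apart from other genes. The differences were -0.22 ± 0.15 in 769-P and -0.24 ± 0.33 in ACHN, with adjusted p values of 0.414 and 0.966 in limma, and of 0.120 and 0.153 with the block. In ACHN the difference ran from -0.54 to -0.0045 when 1 library was left out.

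KAT7 (ENSG00000136504; chr17:49788555-49835030), the catalytic subunit that also serves the JADE complexes, was at 3.09, 3.03 and 2.93 FPKM under siNUF2 in 769-P and at 3.52, 3.56 and 3.89 under siControl. Every siNUF2 library was thus below every siControl library. The difference was -0.26 ± 0.08 on the log2 scale, and its limma adjusted p was 0.101 without the block and 0.0520 with it. In ACHN cells KAT7 was at 2.64, 4.40 and 3.48 FPKM against 3.10, 3.94 and 3.75, where the siNUF2 libraries spanned the siControl range and the difference was -0.04 ± 0.20 (adjusted p = 0.996). Up to 2.68% of its annotated exon bases are shared with a lincRNA on the same strand, where no strand setting would tell reads apart. A further overlap, of 2.51%, is with the antisense gene FAM117A. ING5 and KAT6B share 2.05% and up to 1.11% of their exon bases with antisense genes. Since a strand setting is not given in the sources used here, reads in these antisense overlaps cannot be told apart.

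By share of the 3 acetyltransferases, KAT6A made up 46.8% ± 1.43 under siControl and 54.2% ± 0.538 under siNUF2 in 769-P (SD, n = 3). Its share of the ACHN sum was 35.5% ± 1.85 and 41.8% ± 5.04. KAT7 made up 35.3% ± 2.00 and 30.1% ± 1.93 of the 769-P sum under these siRNAs, against 41.1% ± 2.36 and 38.9% ± 2.23 of the ACHN sum. In 769-P the groups did not overlap for either gene, and the exact two-sided permutation p was 0.1 for each, the smallest the design allows. In ACHN it was 0.3 for KAT6A and 0.4 for KAT7, and adjusted over these 4 shares the values were 0.2 in 769-P and 0.4 in ACHN. Within numbered pairs of ACHN the KAT7 share moved by -4.70 to 1.38 points. The shares depend on the length used for each gene. Divided by the longest coding transcript, KAT7 made up 18.3% under siControl and 15.4% under siNUF2 in 769-P, and 21.4% and 20.5% in ACHN, while KAT6A made up 52.1% and 59.1%, and 39.7% and 47.2%.

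The groups of all 3 small subunits overlapped in both lines. ING4 (ENSG00000111653; chr12:6650280-6663148), a reader of trimethylated histone H3 lysine 4, was at 6.05, 7.85 and 8.74 FPKM under siNUF2 and at 5.37, 7.35 and 6.97 under siControl in 769-P. The ACHN values were 7.54, 10.1 and 7.46 FPKM against 8.88, 11.5 and 8.45. Within same-numbered pairs, siNUF2 was the higher of each pair in 769-P and the lower of each pair in ACHN. The differences were 0.20 ± 0.16 (adjusted p = 0.474) and -0.18 ± 0.18 (adjusted p = 0.925) on the log2 scale, and with the block the limma adjusted p values were 0.0752 and 0.0719.

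ING5 (ENSG00000168395; chr2:241687085-241729478), the other reader of that mark, was at 4.59, 4.30 and 4.12 FPKM under siNUF2 in 769-P and at 4.04, 4.19 and 3.24 under siControl. The ACHN values were 3.35, 5.67 and 4.24 FPKM against 3.08, 5.07 and 3.73. All 6 pairs were higher under siNUF2, yet the groups overlapped. Pairs of one sign within a line were common among the members, and their share over all genes was not counted. The differences of 0.19 ± 0.12 and 0.17 ± 0.25 had limma adjusted p values of 0.338 and 0.975. With the block these were 0.128 and 0.116.

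MEAF6 (ENSG00000163875; chr1:37492575-37514774), a small protein found in the MYST complexes of all 3 enzymes, was at 13.6, 14.3 and 14.05 FPKM under siNUF2 and at 12.6, 14.4 and 14.7 under siControl in 769-P. The ACHN values were 11.2, 8.65 and 10.3 FPKM against 11.4, 8.08 and 9.57. Its differences were the smallest of the 9 in 769-P, 0.02 ± 0.08 (limma adjusted p = 0.879), and were 0.08 ± 0.16 (adjusted p = 0.989) in ACHN. The 95% interval of the fold was 0.895 to 1.16 for 769-P and 0.799 to 1.39 for ACHN.

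**Figure D2:**
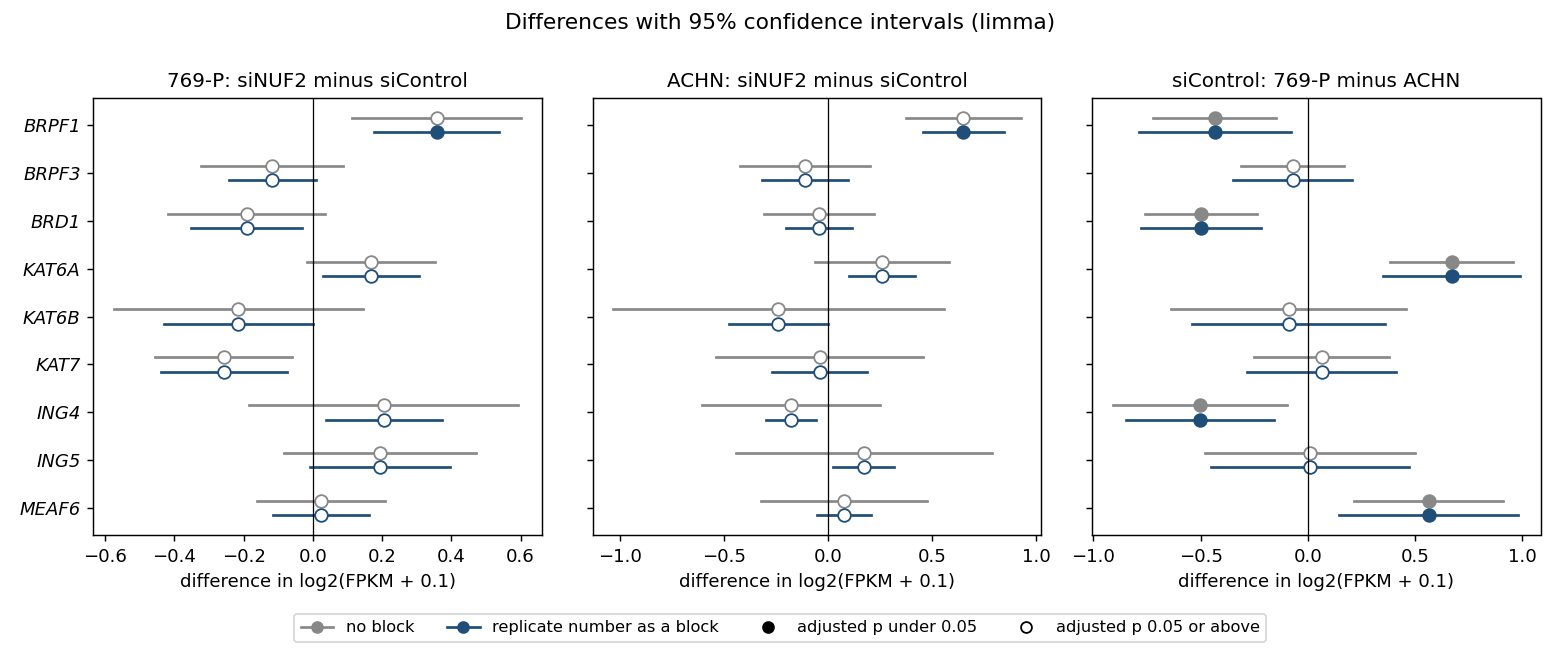
Difference in log2(FPKM + 0.1) (horizontal axes) for each of the 9 genes with its 95% interval, for siNUF2 minus siControl in 769-P and in ACHN and for 769-P minus ACHN under siControl, without a block (grey) and with the replicate number as a block (blue). Filled points have an adjusted p under 0.05. BRPF1 is filled with the block in both siRNA comparisons, at 0.36 and 0.65, and no other gene is filled there.

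Whether the lines responded differently was asked with an interaction term. None of the 9 members was called without the block (0% of 16564 genes were called by limma, 776 had an unadjusted p under 0.05, and limma-voom called 0) and none with it, where 1.52% of all genes were called. The response of BRPF1 was 0.30 ± 0.15 greater in ACHN on the log2 scale without the block (adjusted p = 1.000) and had an adjusted p of 0.193 with it. The lowest adjusted p of the members was that of ING4, whose response was 0.38 lower in ACHN, with an adjusted p of 0.0694 with the block, and 0.149 with the block and without ACHN repeat 2.

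The transcript levels of the members under siControl were then set in order. By FPKM, 769-P cells had MEAF6 at 13.9 ± 1.16, BRPF3 at 7.94 ± 0.628, BRD1 at 7.45 ± 0.847, ING4 at 6.57 ± 1.05, KAT6A at 4.86 ± 0.195, ING5 at 3.83 ± 0.512, KAT7 at 3.65 ± 0.203, BRPF1 at 2.62 ± 0.203 and KAT6B at 1.86 ± 0.245 (SD, n = 3). In that order the ranges of BRPF3 and BRD1, of BRD1 and ING4, and of ING5 and KAT7 overlapped. ACHN cells had BRD1 at 10.8 ± 0.256, MEAF6 at 9.69 ± 1.67, ING4 at 9.60 ± 1.63, BRPF3 at 8.56 ± 0.303, ING5 at 3.96 ± 1.01, BRPF1 at 3.67 ± 0.188, KAT7 at 3.597 ± 0.438, KAT6A at 3.10 ± 0.314 and KAT6B at 2.09 ± 0.651 FPKM. There each neighbour in the order overlapped the next except BRPF3 and ING5. BRPF1 was the scaffold of lowest FPKM in both lines.

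These levels depend on the length by which each gene was divided. The recovered reads fitted division by all annotated exon bases, which are 24175 for KAT6A and 32495 for KAT6B, while their longest coding transcripts in GENCODE release 29 have 9254 and 8348 bases. The longest coding transcript was used instead in an alternative added after the data had been seen. By it KAT6A was at 12.7 and KAT6B at 7.24 in 769-P, and at 8.10 and 8.12 in ACHN. BRPF1, at 3.03 and 4.24, then had the lowest mean of the 9 in both lines. KAT7 was next, at 4.45 and 4.38, and the FPKM ranges of BRPF1 and KAT7 overlapped in ACHN. Differences between groups of 1 gene do not depend on this length.

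Between the lines under siControl, 5 of the 9 members were called without the block, 2 higher and 3 lower in 769-P than in ACHN, beside 32.2% of 15376 genes higher and 29.3% lower. BRPF1 was 0.43 ± 0.12 lower in 769-P on the log2 scale (limma adjusted p = 0.0179), BRD1 0.50 ± 0.11 lower (adjusted p = 0.0068) and ING4 0.50 ± 0.17 lower (adjusted p = 0.0383). KAT6A was 0.67 ± 0.12 higher (adjusted p = 0.0028) and MEAF6 0.56 ± 0.15 higher (adjusted p = 0.0134). The siControl libraries of the lines did not overlap for any of these 5, and the share of all genes separated in this way was not counted. With ACHN repeat 2 left out, KAT6A was 0.74 higher (adjusted p = 0.0030), BRD1 0.48 lower (0.0181), BRPF1 0.47 lower (0.0223) and MEAF6 0.44 higher (0.0268), and ING4, 0.37 lower, no longer passed (0.0888). ING4 was called in 2 of the 6 fits that leave out 1 library, with adjusted p values of 0.0432 to 0.113, and MEAF6 in 4 of 6, with 0.0538 without siControl repeat 2 of 769-P. Without siControl repeat 3 of 769-P, 2 of 9 were called, BRD1 and KAT6A, beside 7602 of 14611 genes. The limma adjusted p values were then 0.0589 for BRPF1, 0.0672 for ING4 and 0.0511 for MEAF6. BRPF3, KAT6B, KAT7 and ING5 had differences between -0.09 and 0.06 and overlapped between the lines. The lines themselves cannot be told apart from their separate cultures and media.

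The JADE scaffolds are the alternative partners of KAT7. JADE1 was at 15.5, 14.04 and 16.6 FPKM under siNUF2 and at 12.6, 11.6 and 11.8 under siControl in 769-P, with no overlap, a difference of 0.36 ± 0.09 on the log2 scale and a limma adjusted p of 0.0446. This call was lost when any 1 of the 6 libraries was left out, with adjusted p values of 0.053 to 0.135, and the 3 JADE genes differed by 0.03 to 0.04 in ACHN. Of the 3 JADE genes, 1 passed in 769-P without the block and 2 with it, JADE1 and JADE2, the latter at 0.18 (adjusted p = 0.0456). None passed in ACHN in either fit.

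Other lists around the complexes were described by the same fits. Their members had been chosen with earlier results of these data known, and their counts are read beside the shares of all genes given above. Of 15 other MYST enzymes and subunits of the KAT8 complexes, none passed in 769-P without the block (median 0.05) and 2 rose in ACHN with it (median -0.01). With the block in 769-P, KAT8, the catalytic subunit, fell by 0.25 (limma adjusted p = 0.0219). The genes that rose in ACHN were WDR5, a shared subunit of histone-modifying complexes, by 0.27 ± 0.04 (limma adjusted p = 0.0265), and MCRS1, by 0.21 ± 0.04 (adjusted p = 0.0440). Without ACHN repeat 2 the adjusted p values were 0.0643 and 0.148. Of 3 other ING genes and of 7 other acetyltransferases, EP300 and CREBBP included, none passed in 769-P without the block or in ACHN with it. With the block in 769-P, ING2 rose by 0.32 ± 0.05 (limma adjusted p = 0.0148), and EP300 fell by 0.19 ± 0.05 (adjusted p = 0.0428).

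Of 14 subunits of the TIP60 complex, whose enzyme KAT5 belongs to the same family, 1 fell in 769-P without the block, and 1 rose and 1 fell in ACHN with it. YEATS4, the acetyl-lysine reader of that complex, was at 5.67, 5.84 and 4.51 FPKM under siNUF2 and at 10.97, 10.4 and 11.6 under siControl in 769-P, a fall of -1.03 ± 0.11 (limma adjusted p = 0.0056, or 0.0609 when all 12 libraries were fitted together). The ACHN values were 6.46, 14.4 and 11.8 FPKM against 13.4, 22.4 and 24.5, which overlap by 1 library, a difference of -0.89 ± 0.09 with the block (adjusted p = 0.0144, and 0.0142 without repeat 2). RUVBL2, an ATPase of the complex, rose by 0.37 ± 0.07 in ACHN with the block (adjusted p = 0.0353), with an adjusted p of 0.0590 without repeat 2. With the block in 769-P, YEATS4 was called together with RUVBL2, higher by 0.41 (adjusted p = 0.0095), and ACTL6A, lower by 0.24 (adjusted p = 0.0468). The medians of the 14 were -0.07 in 769-P and 0.0031 in ACHN.

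Of 10 class I and II deacetylases, which remove the acetyl groups, 9 were tested in 769-P and 10 in ACHN, and HDAC1 was the one that passed the test in 769-P without the block and in ACHN with it. HDAC1 was at 82.5, 83.4 and 88.3 FPKM under siNUF2 and at 57.98, 57.5 and 54.9 under siControl in 769-P, and at 37.1, 35.3 and 32.9 against 26.4, 27.1 and 21.7 in ACHN. Its groups did not overlap in either line, and it rose by 0.59 ± 0.06 (limma adjusted p = 0.0053) and by 0.51 ± 0.06 with the block (adjusted p = 0.0166, and 0.0212 without repeat 2). With the block in 769-P, 4 of 9 deacetylases were called, HDAC1, HDAC7 and HDAC9 higher and HDAC4 lower. HDAC7 and HDAC9 rose by 0.49 and 0.61 (limma adjusted p = 0.0245 and 0.0481), and HDAC4 fell by 0.49 (adjusted p = 0.0088). The response of HDAC4 also differed between the lines with the block, being 0.59 higher in ACHN (adjusted p = 0.0401).

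Of 11 genes of replication licensing, a process that uses HBO1, none passed in 769-P without the block (median 0.01) and 5 rose with the block in ACHN (median 0.45, beside 0.0061 for all genes). With the block in 769-P, MCM3 rose by 0.20 (limma adjusted p = 0.0205) and ORC2 fell by 0.27 (adjusted p = 0.0250), and without the block none of the 11 was called in ACHN. The difference of response between the lines was called for none of the 11 in either fit. MCM3, a subunit of the replicative helicase, was at 30.5, 33.3 and 33.3 FPKM under siNUF2 against 16.7, 26.7 and 22.5 in ACHN, a rise of 0.60 ± 0.11 (limma adjusted p = 0.0353). CDT1, which loads the helicase at origins, rose by 0.57 ± 0.07 (adjusted p = 0.0187), and MCM5 by 0.53 ± 0.11 (adjusted p = 0.0440). Without repeat 2 these 3 were at 0.74, 0.65 and 0.68 with adjusted p values of 0.0229, 0.0171 and 0.0171.

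Of 19 HOX, MEIS and PBX genes, the developmental targets for which MOZ is known, 7 were high enough to be tested in 769-P and 18 in ACHN. In 769-P without the block 1 fell, and in ACHN with the block 3 fell and 1 rose, with medians of -0.14 and -0.07. The gene that rose was PBX3, by 0.30. HOXA9 was called in neither line, at 98.9% of its siControl mean in 769-P and 96.0% in ACHN. HOXA10 was at 2.14, 2.36 and 2.03 FPKM under siNUF2 and at 2.94, 3.67 and 3.84 under siControl in 769-P, a fall of -0.64 ± 0.12 (limma adjusted p = 0.0254), which remained called only without siControl repeat 1 when 1 library was left out (adjusted p = 0.0229, and 0.0550 to 0.0916 otherwise). In ACHN HOXA10 was at 7.30, 13.7 and 9.86 FPKM against 10.6, 17.7 and 14.6, with overlapping groups and a difference of -0.47 ± 0.06 with the block (adjusted p = 0.0171, and 0.0252 without repeat 2). HOXA7 and HOXA5 fell there by -0.69 ± 0.12 and -0.53 ± 0.07 with the block (adjusted p = 0.0302 and 0.0189, and 0.0436 and 0.0343 without repeat 2). With the block in 769-P, HOXA5 was called beside HOXA10, with a fall of -0.64 ± 0.16 (limma adjusted p = 0.0388).

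The other chromatin genes that the study named beside BRPF1 from these libraries, PCGF6, KDM2A, SETD7, GATAD2A, BAHD1 and PRMT6, were all positive, with 5 of 6 called in 769-P without the block, and 6 of 6 in each line with it. As they were chosen for this on the same libraries, their count is not independent evidence of the direction. SETD7 was the largest of the 6 in both lines, at 1.56 and 1.15 on the log2 scale against 0.36 and 0.65 for BRPF1.

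The genes most like BRPF1 were sought over the 12 libraries after the mean of each line had been taken out, among the 12937 genes that passed the filter in both lines. BCL7B, a subunit of the SWI/SNF chromatin remodelling complexes, had the highest Pearson r (0.959), followed by TM9SF1 (0.956), OPA1, a mitochondrial fusion GTPase (0.948), RAC1, a small GTPase of the cytoskeleton (0.942), and TRAF3, an adaptor of immune signalling (0.941). The points share the siRNA groups and their libraries, so a gene that moves with the siRNA in both lines has a high r by that alone. BCL7B was at 15.4, 16.6 and 16.2 FPKM under siNUF2 against 11.5, 13.6 and 11.2 in 769-P and at 28.6, 27.9 and 32.4 against 19.8, 19.6 and 22.0 in ACHN, with no overlap in either line. As BCL7B was chosen by its likeness to BRPF1 in these libraries, this separation is not independent evidence. Among the partners, KAT6A was nearest with r = 0.770 at rank 458, and the r of the others ran from -0.422 for KAT6B to 0.306 for ING5.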

How the data were processed

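RNA sequencing of 769-P and ACHN cells gave 12 libraries, 3 in each of 4 groups, grouped by their labels. The values the authors deposited are FPKM, 1 per gene and library. Reads were filtered with fastp per the study's methods. HISAT2 2.0.5, featureCounts 1.5.0-p3 and hg38 come from the submitters' processing notes. The annotation and strand setting are not given in the sources used here, and exon lengths of GENCODE release 29 turned between 96.7% and 97.1% of values under 50 reads into whole reads within 0.02 of an integer, so positions and lengths were taken from it. Reads recovered in this way set the depth, of 29244014 to 38864841 per library, and served for 1 added alternative.

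FPKM were scaled by a trimmed mean of log ratios (30% of the ratios and 5% of the levels trimmed), and genes reaching a scaled FPKM of 0.5 in 3 or more libraries were fitted as log2(FPKM + 0.1) with limma 3.58.1 in R 4.3.3. A fold change on this scale understates the change of low genes. Each line had its own fit, with Benjamini-Hochberg adjustment over all genes, and a gene was called at an adjusted p under 0.05. The interaction used all 12 libraries. Exact permutation tests were two-sided. The fits were tested on simulated data, and Python 3.11.15 with pandas 2.3.3, NumPy 2.4.6 and matplotlib 3.10.9 served for tables and figures.

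The replicate numbers come from the titles of the samples, which say no more than the repeat. Deviations from the group means of same-numbered libraries correlated at 0.359, 0.271 and 0.190 in 769-P and at 0.648, 0.735 and 0.460 in ACHN, so the numbers were taken to pair the libraries within a line, and a fit that blocks on the number is given where it changes a call. Across the lines under siControl the same-numbered correlations were -0.044, -0.0037 and 0.031, so the block there pairs by number only. No library was a copy of another of its group, as the chi-square per gene between libraries was at least 14.3.

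The members and the lists were chosen with earlier results of these data known. The genes named are the 9 members, NUF2, up to 3 genes called per list and line (without the block in 769-P and with it in ACHN), and the 5 genes most like BRPF1. CREBBP, PBX3, HOXA9, the markers and the list genes called in 769-P with the block alone, JADE2 and EP300 among them, lie outside that rule. They are named to say what a list or library holds. The alternatives were other scalings, pseudocounts of 1 and 0.01, no filter, the block, all 12 libraries in 1 fit and leaving out each library. Limma-voom, leaving out both ACHN repeat 2 libraries and, for levels and shares, the length of the longest coding transcript were added with the data in view.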

Additional observations from a re-analysis of the deposited data

Results flagged for a closer look

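ING4 moved in opposite directions in the lines: siNUF2 was higher than siControl in 3 of 3 same-numbered pairs of 769-P and lower in 3 of 3 of ACHN. The response in ACHN less that in 769-P was -0.38 ± 0.26 (SE) on the log2(FPKM + 0.1) scale. The test of this difference did not pass, with an adjusted p of 1.000 in limma without the block and 0.0694 with it. Pairs opposed in this way were found for 734 of 12930 genes tested in both lines, or 5.68%.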

How the results depend on the processing

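With the pairing as a replicate block, BRPF1 passed at a difference of 0.36 (769-P) and 0.65 (ACHN), so 1 member was called in each line, and no other call among the members changed with the block. In ACHN the fit of all 12 libraries also called it (0.64, adjusted p = 0.0221, 1 member), beside 177 of 15065 genes. The block without repeat 2 of both groups called it as well (0.64, 1 member), beside 1076 of 14358 genes. Over the alternatives without the block its adjusted p stayed above 0.05 in 769-P. Every alternative left BRPF1 higher under siNUF2, from 0.28 to 0.40 (769-P) and from 0.54 to 0.69 (ACHN). Between the lines, 2 to 5 members were called when 1 library was left out, beside 7287 to 8129 of 13945 to 14611 genes. Without the filter ING4 was lost (limma adjusted p = 0.0663). The BRPF1 shares kept their direction under each alternative.

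Some differences that were never called changed sign, and the cause was not tested. Leaving out 1 library gave -0.040 to 0.064 for MEAF6 in 769-P, and in ACHN -0.11 to 0.036 for BRD1, -0.21 to 0.14 for KAT7, -0.019 to 0.36 for ING5 and -0.044 to 0.20 for MEAF6. For the difference of response it gave -0.10 to 0.11 (BRPF3), -0.34 to 0.20 (KAT6B), -0.22 to 0.16 (ING5) and -0.078 to 0.18 (MEAF6). Between the lines it gave -0.21 to 0.14 (KAT6B), -0.030 to 0.13 (KAT7) and -0.15 to 0.20 (ING5). The BRPF3 difference of response was -0.0026 with median-ratio scaling, -0.0014 with FPKM as deposited, and -0.024 without ACHN repeat 2 with or without the block. ING5 between the lines was -0.022 with median-ratio scaling, -0.027 with FPKM as deposited and -0.039 with limma-voom. The members had 425 reads or more per library, and the parts of counting error and of other spread between repeats were not told apart.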
